A study of Homo sapiens with 4 samples.

Results

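Innate nucleic acid sensors and Toll-like receptors were examined as a group of 10 genes in MHCC97H cells, a human liver cancer line derived from hepatocellular carcinoma. The genes were chosen by name from the 39306 gene names of the deposited tables: the RIG-I-like receptors DDX58 (now RIGI), IFIH1 and DHX58, their adaptor MAVS, the DNA sensor MB21D1 (now CGAS) with its adaptor TMEM173 (now STING1), and the Toll-like receptors TLR1, TLR3, TLR4 and TLR6. All 10 had a row in each table and all 10 passed the filter on low values that left 20221 genes to test. Total RNA depleted of ribosomal RNA was sequenced in 2 libraries of sh-HNRNPM cells, in which HNRNPM is knocked down, and in 2 libraries of HNRNPM wild-type cells. HNRNPM encodes an RNA-binding protein that regulates splicing, and the study set out to find genes whose splicing depends on it. The tables hold levels per gene, so splicing is not measured here. The labels name no control hairpin and do not say whether the knockdown libraries share a hairpin, so delivery of a hairpin and loss of HNRNPM cannot be told apart. They also do not say whether replicates were separate cultures, and the p-values therefore rest on a spread that may be technical.

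RIG-I-like receptors are cytosolic helicases that bind viral or misplaced double-stranded RNA and signal through MAVS on mitochondria. Cyclic GMP-AMP synthase, the product of MB21D1, binds cytosolic DNA and makes a cyclic dinucleotide that activates STING, the product of TMEM173, at the endoplasmic reticulum. Toll-like receptors are membrane receptors: TLR1 and TLR6 pair with TLR2 to bind bacterial lipopeptides, TLR4 binds lipopolysaccharide, and TLR3 binds double-stranded RNA in endosomes. Between them these routes lead to interferon regulatory factors and NF-kB, which switch on interferons and inflammatory cytokines, and not every route uses both to the same extent. Hepatocytes meet bacterial products from the gut and hepatitis viruses, and they express several of these receptors.

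Assigned reads numbered 12708165 and 11498663 in the knockdown libraries and 18317579 and 19659106 in the wild-type libraries, so a low level rests on fewer reads in the knockdown. Levels are given as deposited, in RPKM, which are reads scaled by exon length and by library depth, so levels can be compared between genes. HNRNPM itself had 21.8 and 20.4 RPKM in the knockdown libraries against 51.3 and 51.6 RPKM in the wild-type libraries, with a log2 fold change of -1.35 ± 0.07 (SE; adjusted p = 0.0027 by limma). Log2 fold changes are knockdown minus wild type on the log2(RPKM + 0.1) scale after TMM (trimmed mean of M values) scaling between libraries, which understates the change of genes at low levels. A gene was called when its limma p-value, adjusted over all tested genes, was under 0.05. Of the epithelial and liver markers, KRT8 (655 ± 24.4 RPKM in knockdown, 522 ± 22.6 RPKM in wild type) and KRT18 were the most abundant, while ALB averaged 1.76 ± 0.0207 RPKM in knockdown and 5.82 ± 0.658 RPKM in wild type (SD, n = 2). AFP reached at most 0.436 RPKM in any library.

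The sequences below are shown because the lowered receptors TLR1 and TLR6 share an annotated start, and because interferon-response motifs lie near the starts of IFIH1 and TLR3. They come from RefSeq, build GRCh38.p14, whose promoter table (250 bases before to 50 bases from each start) held 6 of the 10 genes and not DHX58, TMEM173, MB21D1 or TLR1. The first is the 250 bases before the TLR6 start, at chr4:38856818-38857067 on the minus strand, which overlap no annotated exon. The others are 30-base windows around matches to the interferon-stimulated response element, spelled GAAA, any 2 bases, GAAA, and searched on both strands, with the matched bases in capitals. These windows overlap annotated exons by 11, 18 and 20 bases in the order shown.
TLR6 upstream: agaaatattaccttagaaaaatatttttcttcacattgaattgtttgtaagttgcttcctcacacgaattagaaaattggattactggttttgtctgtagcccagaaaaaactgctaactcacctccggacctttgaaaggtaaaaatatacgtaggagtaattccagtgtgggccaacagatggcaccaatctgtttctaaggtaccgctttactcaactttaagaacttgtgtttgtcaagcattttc
IFIH1, chr2:162318821-162318850, minus strand: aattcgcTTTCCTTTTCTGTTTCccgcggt
IFIH1, chr2:162318686-162318715, minus strand: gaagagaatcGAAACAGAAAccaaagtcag
TLR3, chr4:186069142-186069171, plus strand: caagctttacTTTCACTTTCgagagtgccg
In the 300-base promoters IFIH1 held 3 matches, 2 of them overlapping each other (all within the IFIH1 windows above), and TLR3 held 1 that spans its start, while none was found in DDX58, MAVS, TLR4 or TLR6. Among all 35116 promoters of that length 3.57% held a match. The kappa B motif matched DDX58 and IFIH1 once each (11.3% of all promoters), and the AP-1 motif TGANTCA matched none of the 6 (7.71% of all promoters). No kappa B match overlapped a match of the other motifs. A match describes letters and not a bound site.

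MAVS was the most abundant of the 10 genes in both groups, and TLR3 the least. In the knockdown libraries MAVS averaged 13.2 ± 0.0922 RPKM (SD, n = 2), followed by TMEM173 at 1.65 ± 0.293, TLR6 at 1.50 ± 0.0782, IFIH1 at 1.46 ± 0.271, DDX58 at 1.33 ± 0.295 and TLR1 at 1.25 ± 0.00200 RPKM. From TMEM173 to TLR1 each gene's range overlapped that of its neighbour in this order, while both TLR1 values lay below those of TLR6 and TMEM173. DHX58 followed at 0.695 ± 0.118, TLR4 at 0.474 ± 0.0780, MB21D1 at 0.370 ± 0.0683 and TLR3 at 0.0616 ± 0.00435 RPKM. In the wild-type libraries TLR1 and TLR6 stood directly after MAVS. There MAVS averaged 12.7 ± 0.0568 RPKM (SD, n = 2), TLR1 4.14 ± 0.319, TLR6 3.96 ± 0.308 and TMEM173 3.20 ± 0.430 RPKM. DDX58 and IFIH1 followed at 1.63 ± 0.210 and 1.57 ± 0.0862 RPKM, then DHX58 at 0.870 ± 0.0244, TLR4 at 0.556 ± 0.00765, MB21D1 at 0.241 ± 0.00590 and TLR3 at 0.183 ± 0.0518 RPKM. In this group the ranges of neighbours overlapped for TLR1 with TLR6 and for DDX58 with IFIH1. Among the tested genes, mean levels ranked from the 0.979 percentile for TLR3 to the 81.9 percentile for MAVS.

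**Figure D1:**
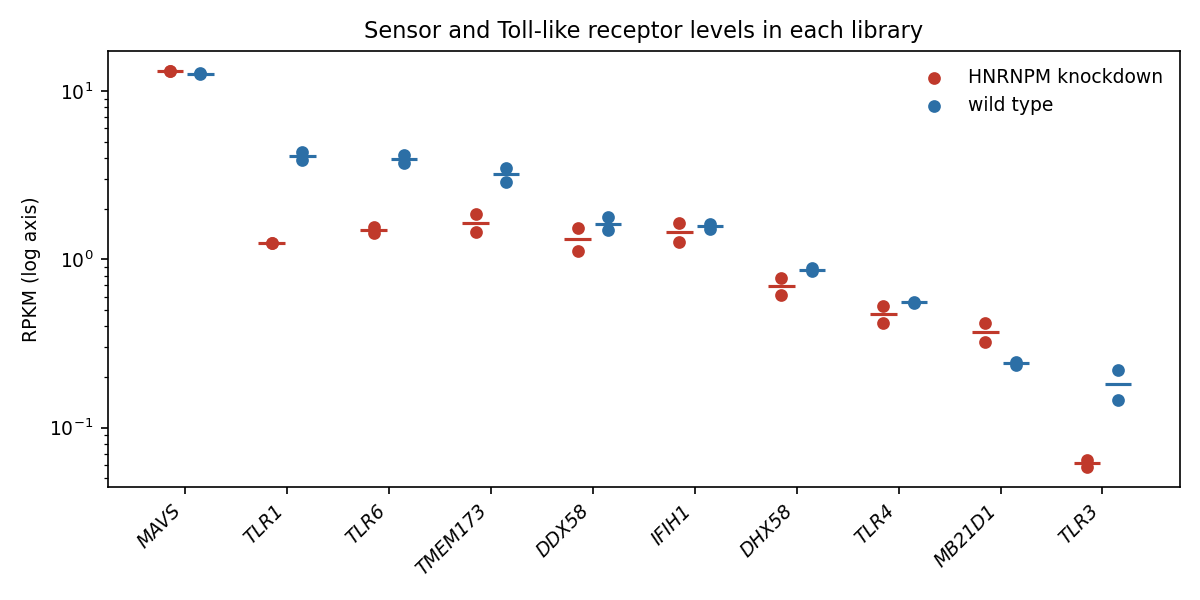
RPKM (log axis) of the 10 genes in each library, ordered by their wild-type mean; points are libraries, lines are means of the 2 libraries, red is HNRNPM knockdown and blue is wild type. TLR1 averaged 1.25 RPKM in knockdown and 4.14 RPKM in wild type, while MAVS averaged 13.2 RPKM in knockdown and 12.7 RPKM in wild type.

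After HNRNPM knockdown, 3 of the 10 genes fell and none was called higher: TLR1, TLR6 and TMEM173. These 30% compare with 24.9% of all tested genes called in either direction, 13.8% lower and 11.1% higher, so the share of called genes was near that of the transcriptome. Besides limma's 0 called higher, 0 genes were higher at an unadjusted p under 0.05 and 0 by limma-voom on the recovered reads. The estimate was below 0 for 9 of the 10 genes, with a median log2 fold change of -0.35 against -0.031 over all tested genes. Among the 9 is MAVS at -0.0083, whose sign changed with scaling. The share of all tested genes with an estimate below 0 was not counted. After scaling, the groups did not overlap for 8 of the 10 genes, with the knockdown below for 7 and above for 1. TLR3 is counted among the 9 and the 7 and in the median. It passed the filter only through the wild-type libraries, where it is higher, so its part in these counts is a description. Among all tested genes 67.6% did not overlap, with the knockdown below for 36.6% and above for 31%.

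**Figure D2:**
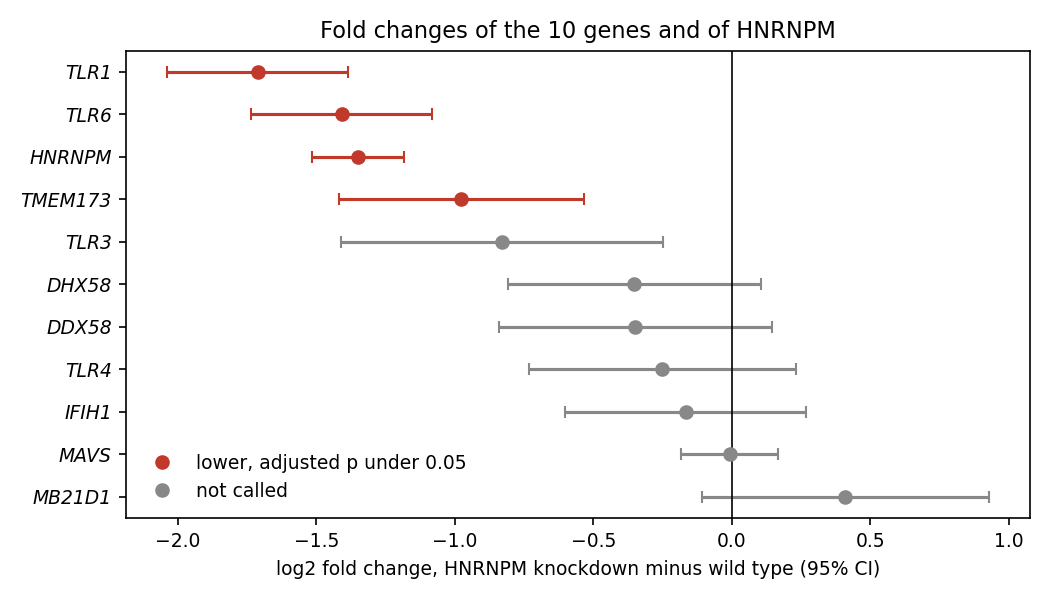
Log2 fold changes, HNRNPM knockdown minus wild type, with limma's 95% confidence intervals for the 10 genes and for HNRNPM as the targeted gene; red marks an adjusted p under 0.05 and grey marks genes not called. TLR1, TLR6, HNRNPM and TMEM173 were lower, from -1.71 to -0.98 on the log2 scale.

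Of the 4 Toll-like receptors TLR1 and TLR6, the lipopeptide receptors, fell, and TLR3 and TLR4 did not pass the test. TLR1 (GRCh38 chromosome 4, positions 38790677 to 38856817, minus strand, 4535 bp of exon) had 1.25 and 1.25 RPKM in the knockdown libraries, from 72 and 65 reads, against 3.91 and 4.36 RPKM in the wild-type libraries, from 325 and 389 reads. The groups did not overlap, and the knockdown mean was 30.2% of the wild-type mean. Its log2 fold change of -1.71 ± 0.13 (SE; adjusted p = 0.00369 by limma) is a fold of 0.305 with a 95% interval of 0.244 to 0.383.

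TLR6 (chromosome 4, positions 38823715 to 38856817, minus strand, 6035 bp of exon) fell too. It had 1.55 and 1.44 RPKM in the knockdown libraries, from 119 and 100 reads, against 3.75 and 4.18 RPKM in the wild-type libraries, from 414 and 496 reads. Both knockdown libraries lay below both wild-type libraries, at 37.8% of the wild-type mean, with a log2 fold change of -1.41 ± 0.13 (limma adjusted p = 0.00434; fold 0.377, 95% interval 0.301 to 0.473). TLR1 was measured at 0.805 and 0.865 times the TLR6 level per length in the knockdown libraries and at 1.04 and 1.04 times in the wild-type libraries. The confidence intervals of the 2 fold changes overlap, and whether TLR1 fell further than TLR6 was not tested.

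TLR1 and TLR6 are close relatives and neighbours, and 1 of the 10 GENCODE transcripts of TLR1 starts at the same base as 3 of the 5 of TLR6. Their exons share 57 bp in the deposited annotation, and 3.14% of the 75-base stretches of TLR1 transcripts also occur in TLR6 transcripts (149 of 4748), so a small share of reads cannot be assigned to either. On the side of lower coordinates, TLR10, a further member of this receptor subfamily, had 1 and 2 reads in the knockdown libraries and 5 and 3 in the wild-type libraries, too few to test. On the side of higher coordinates FAM114A1, whose start lies 10.9 kb from the shared start and which is read in the opposite direction, rose to 21.2 and 20.7 RPKM in the knockdown libraries, against 13.6 and 14.0 RPKM in the wild-type libraries (log2 fold change 0.53 ± 0.07, limma adjusted p = 0.00732). KLF3, a transcriptional repressor gene beyond TLR10, was at 7.04 ± 0.171 RPKM in knockdown and 6.18 ± 0.0306 RPKM in wild type and was not called (log2 fold change 0.12 ± 0.08, limma adjusted p = 0.321). Neither of the tested flanking genes was called lower. MIR574, inside FAM114A1, had 4 or 5 reads in every library.

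**Figure D3:**
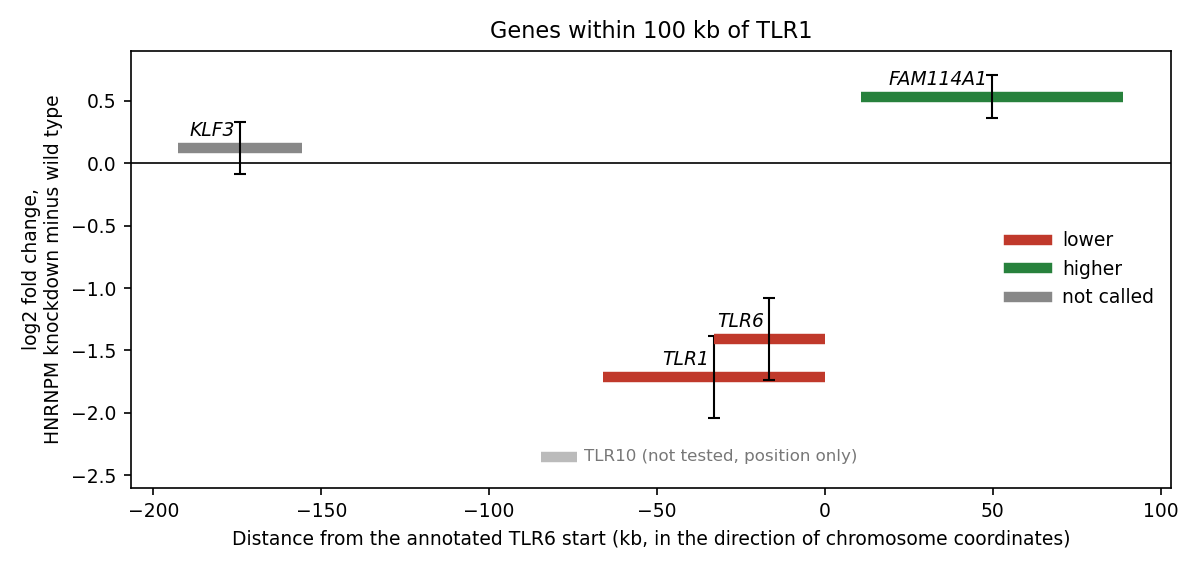
Log2 fold changes, HNRNPM knockdown minus wild type (y axis), of tested genes within 100 kb of TLR1, drawn at their distance in kb from the annotated TLR6 start (x axis); bars are gene spans, whiskers are 95% confidence intervals, TLR10 is marked by position only and MIR574 is not drawn. TLR1 and TLR6 lie at -1.71 and -1.41, FAM114A1 at 0.53 and KLF3 at 0.12.

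TLR3 (chromosome 4, positions 186069152 to 186088069, plus strand) was the least abundant of the 10 genes. It had 0.0585 and 0.0647 RPKM in the knockdown libraries, from 5 and 5 reads, against 0.146 and 0.219 RPKM in the wild-type libraries, from 18 and 29 reads. The groups did not overlap, but the gene missed the threshold (log2 fold change -0.83 ± 0.23, limma adjusted p = 0.0529). Pooled within groups, 10 reads against 47 give a depth-corrected ratio of 0.334, with an exact conditional 95% interval of 0.15 to 0.669 that covers counting error only. TLR3 passed with limma-voom (log2 fold change -1.51, adjusted p = 0.012), with a pseudocount of 0.01 (-1.46, adjusted p = 0.043) and with robust moderation (-0.83, adjusted p = 0.0483), and was not called without knockdown replicate 1 (adjusted p = 0.163) or without knockdown replicate 2 (adjusted p = 0.137). It passed the filter only through the wild-type libraries, the group where it is higher, so its values and these calls are a description. Without either wild-type library it did not pass the filter.

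TLR4 (chromosome 9, positions 117704332 to 117716871, plus strand) had 0.419 and 0.529 RPKM in the knockdown libraries, from 28 and 32 reads, against 0.550 and 0.561 RPKM in the wild-type libraries, from 53 and 58 reads. The knockdown libraries lay just below the wild-type ones, and the gene was not called (log2 fold change -0.25 ± 0.19, limma adjusted p = 0.38). The 95% interval of its fold, 0.601 to 1.17, includes both no change and a decrease larger than the estimate. Of the 75-base stretches of GENCODE TLR4 transcripts, 3.64% also occur in transcripts of AL160272.2. The deposited TLR4 span differs from that of GENCODE, and whether these stretches lie in the counted exons was not tested.

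TMEM173, the STING adaptor (chromosome 5, positions 139475534 to 139482935, minus strand, 3850 bp of exon), was the third gene that fell. It had 1.86 and 1.45 RPKM in the knockdown libraries, from 91 and 64 reads, against 2.89 and 3.50 RPKM in the wild-type libraries, from 204 and 265 reads. The groups did not overlap, although replicates of each group differed more than for TLR1. The difference was -0.98 ± 0.18 on the log2 scale (limma adjusted p = 0.0171; fold 0.508, 95% interval 0.374 to 0.690). It was not called without knockdown replicate 2 (log2 fold change -0.83, adjusted p = 0.0581) or without wild type replicate 2 (-0.83, adjusted p = 0.0573). None of the 6 tested genes within 100 kb of TMEM173 was called by limma, from PROB1 (log2 fold change -0.37 ± 0.17, adjusted p = 0.155) to SPATA24 (0.49 ± 0.21, adjusted p = 0.141).

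MB21D1, the DNA sensor upstream of TMEM173 (chromosome 6, positions 73413515 to 73452276, minus strand), was the only one of the 10 genes with an estimate above 0. It had 0.322 and 0.419 RPKM in the knockdown libraries, from 17 and 20 reads, against 0.237 and 0.245 RPKM in the wild-type libraries, from 18 and 20 reads. The knockdown libraries lay above the wild-type ones, but the difference did not pass (log2 fold change 0.41 ± 0.21, limma adjusted p = 0.197). Its exons overlap 180 bp of DDX43 on the opposite strand, and whether the counting used the strand is not stated. The TMEM173 level per length was 5.78 and 3.45 times that of MB21D1 in the knockdown libraries and 12.2 and 14.3 times in the wild-type libraries.

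None of the 3 RIG-I-like receptors and not their adaptor was called. DDX58, the RNA sensor RIG-I (chromosome 9, positions 32455705 to 32526324, minus strand), had 1.54 and 1.12 RPKM in the knockdown libraries against 1.78 and 1.48 RPKM in the wild-type libraries, from 56 to 85 and 127 to 142 reads. As deposited the groups overlap, and after TMM scaling they do not (log2 fold change -0.35 ± 0.20, limma adjusted p = 0.242). IFIH1, the long double-stranded RNA sensor MDA5 (chromosome 2, positions 162267079 to 162318703, minus strand), had 1.65 and 1.27 RPKM in the knockdown libraries against 1.51 and 1.63 RPKM in the wild-type libraries (log2 fold change -0.17 ± 0.17, limma adjusted p = 0.519). Here the wild-type libraries lay between the knockdown ones.

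DHX58, or LGP2, a regulator of the other RIG-I-like receptors that lacks their signalling domains (chromosome 17, positions 42101404 to 42112733, minus strand), had 0.778 and 0.611 RPKM in the knockdown libraries against 0.852 and 0.887 RPKM in the wild-type libraries. All 4 values were under 1 RPKM and the gene was not called (log2 fold change -0.35 ± 0.18, limma adjusted p = 0.21). MAVS (chromosome 20, positions 3846799 to 3876123, plus strand) had 13.2 and 13.1 RPKM in the knockdown libraries against 12.6 and 12.7 RPKM in the wild-type libraries, from 1773 to 1979 and 2723 to 2941 reads. With that depth its interval was the narrowest of the 10 genes: log2 fold change -0.0083 ± 0.070 (limma adjusted p = 0.945), and a fold between 0.881 and 1.12. The direction of MAVS depended on scaling, since its estimate was 0.055 when libraries were scaled to total reads. The intervals of DDX58, IFIH1 and DHX58 allowed folds as low as 0.558, 0.658 and 0.571, so decreases down to those folds lie within the error at this depth.

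**Figure D4:**
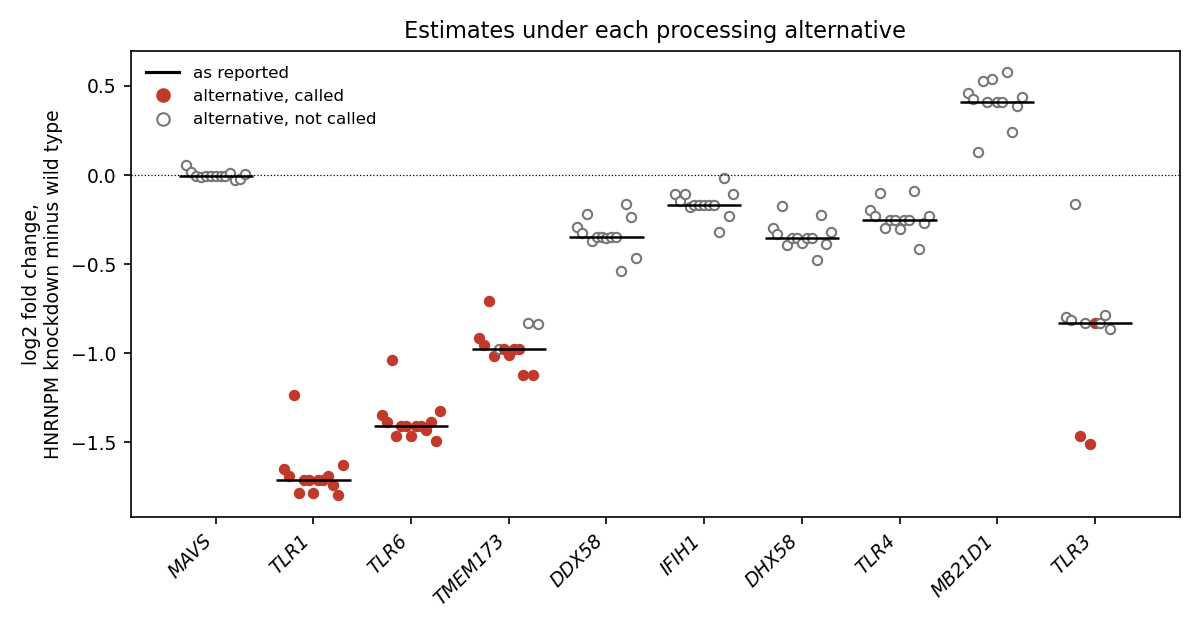
Log2 fold change of each gene as reported (black line) and under each processing alternative (points; filled where the adjusted p was under 0.05). TLR1 and TLR6 stayed called in all 13 alternatives, from -1.80 to -1.23 and from -1.49 to -1.03, while TMEM173 was called in 10 of 13 and TLR3 in 3 of 10.

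The genes whose values over the 4 libraries lay closest to the 3 lowered receptors and adaptors, by Euclidean distance of log2 values centred on their mean, were as follows. For TLR1 they were the albumin gene ALB (distance 0.0570), the endoplasmic reticulum protein gene ERLIN1 (0.0926) and the matrix protease gene MMP7 (0.115). For TLR6 they were the TGF-beta receptor gene TGFBR2 (0.0530), the spindle gene ASPM (0.0609) and FAM20C (0.0980), a secretory pathway kinase gene. For TMEM173 they were RP11-290L7.5 (0.0428), the acetylcholine receptor subunit gene CHRNA5 (0.0567) and DOLPP1 (0.0704), over the same 4 libraries.

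The surrounding pathway was described from gene lists. The remaining Toll-like receptors were barely detected: TLR5, a flagellin receptor, had 5 and 2 reads in the knockdown libraries and 7 and 8 in the wild-type libraries, TLR9, a DNA receptor, had 5 and 0 against 3 and 3, and neither they nor TLR10 could be tested. TLR2, TLR7 and TLR8 were not analysed here. Of 8 tested accessory proteins of Toll-like receptors 4 were lower and 1 higher, with a median log2 fold change of -0.21 against -0.031 over all tested genes. That is 62.5% of the list called, against 24.9% of all tested genes. CD14, which hands lipopolysaccharide to TLR4, was covered by 3 and 3 reads in the knockdown libraries against 29 and 27 in the wild-type libraries, a depth-corrected ratio of 0.168 with a counting interval of 0.0592 to 0.389. LBP, which delivers lipopolysaccharide to CD14, had 12 and 10 reads in the knockdown libraries against 1 and 1 in the wild-type libraries, a ratio of 17.3 with a counting interval of 4.24 to 151. Both are counted among the calls and in the median above but passed the filter only through the group where they are high, so their values are a description. No accessory gene was called higher without knockdown replicate 1, without knockdown replicate 2 or with the stricter filter. UNC93B1, which carries nucleic acid-sensing Toll-like receptors to endosomes, fell to 13.2 ± 1.18 RPKM in knockdown, against 17.7 ± 2.01 RPKM in wild type (limma log2 fold change -0.48 ± 0.12, with adjusted p = 0.0359). The chaperone gene CNPY3 fell to 14.7 ± 0.528 RPKM, against 19.2 ± 1.17 RPKM (-0.44 ± 0.08, adjusted p = 0.0177). The lower accessory genes numbered 1 without knockdown replicate 1, 1 without knockdown replicate 2, 3 without wild type replicate 1 and 1 without wild type replicate 2.

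Markers of leukocytes, which carry these receptors at high levels, were measured in the same libraries. Of 12 such markers 10 had a row and 4 were tested, and 2 of these, CD14 and NKG7, were lower. CD14 passed the filter only through the wild-type libraries, so its call is a description. Among all tested genes 13.8% were called lower and 11.1% higher. PTPRC, which marks leukocytes in general, had 4 and 0 reads in the knockdown libraries and 0 and 0 in the wild-type libraries, and FCGR3A had at most 1 read. The summed level of the list was 64.3 and 62.6 RPKM in the knockdown libraries and 50.3 and 61.7 RPKM in the wild-type libraries, nearly all of it from CD68, a lysosomal gene that tumour cells also express, with 60.8 ± 1.07 RPKM in knockdown and 52.1 ± 8.00 RPKM in wild type. Endothelial markers summed to 6.85 and 7.25 RPKM in the knockdown libraries and 9.66 and 10.4 RPKM in the wild-type libraries, with 2 of 4 tested lower, and fibroblast markers to 4.10 and 4.10 RPKM in the knockdown libraries and 1.63 and 1.87 RPKM in the wild-type libraries, with 3 of 7 tested higher. Of these 3, COL1A1 and PDGFRB passed the filter only through the knockdown libraries. The part of these lists in the result was not tested, and in bulk RNA fewer cells and less RNA per cell cannot be told apart.

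Downstream of Toll-like receptors, 2 of 15 tested adaptors and kinases were higher and 0 lower by limma (0 lower at an unadjusted p under 0.05 and 0 by limma-voom), with a median log2 fold change of 0.14. This called share, 13.3%, was below the 24.9% of all tested genes. TICAM1, the adaptor TRIF of TLR3 and TLR4, rose to 7.14 ± 0.286 RPKM in knockdown, against 4.89 ± 0.104 RPKM in wild type (log2 fold change 0.47 ± 0.09, limma adjusted p = 0.0205). TAB2, which links TRAF6 to the kinase TAK1, rose to 10.4 ± 0.411 RPKM, against 7.52 ± 0.617 RPKM (0.40 ± 0.09, adjusted p = 0.0289). No gene of this list was called without knockdown replicate 1 or without knockdown replicate 2, and 1 was called higher without either wild-type library.

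Of 23 tested regulators and partners of RIG-I-like receptors 2 were lower and 0 higher by limma (3 higher at an unadjusted p under 0.05 and 3 by limma-voom), with a median log2 fold change of -0.048. Calls made up 8.70% of this list, below the 24.9% of all tested genes. ADAR, which edits double-stranded RNA and so limits its detection by IFIH1, fell to 64.9 ± 1.32 RPKM in knockdown, against 80.0 ± 2.34 RPKM in wild type (log2 fold change -0.36 ± 0.06, limma adjusted p = 0.0152). TRIM65, a ubiquitin ligase for IFIH1, had a log2 fold change of -0.43 ± 0.09 (limma adjusted p = 0.0222). Neither was called without knockdown replicate 1 or without knockdown replicate 2, and 1 gene of the list was called lower without wild type replicate 2.

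Of 22 tested regulators and partners of the cGAS-STING route 7 were lower and 0 higher by limma (1 higher at an unadjusted p under 0.05 and 1 by limma-voom), with a median log2 fold change of -0.14. The called share was 31.8% of the list, against 24.9% of all tested genes called in either direction and 13.8% called lower. SLC19A1, a folate carrier that also imports cyclic dinucleotides, fell to 6.63 ± 0.235 RPKM in knockdown, against 13.5 ± 0.877 RPKM in wild type (log2 fold change -1.07 ± 0.09, limma adjusted p = 0.00415). RNF26, a ubiquitin ligase that acts on STING, had a log2 fold change of -0.66 ± 0.11 (limma adjusted p = 0.0133), and SURF4, which returns STING to the endoplasmic reticulum, -0.48 ± 0.08 (adjusted p = 0.0141). Lower genes numbered 1 without knockdown replicate 1 and 3 without knockdown replicate 2.

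Other nucleic acid sensors moved in both directions, with 3 of 23 higher and 6 lower and a median log2 fold change of -0.049. These 39.1% compare with 24.9% of all tested genes called. PRKDC, the DNA-dependent protein kinase, fell to 76.7 ± 1.17 RPKM in knockdown, against 120 ± 1.89 RPKM in wild type (-0.71 ± 0.06 on the log2 scale, limma adjusted p = 0.00428), and the viral RNA-binding ZC3HAV1 to 5.98 ± 0.0241 RPKM, against 9.87 ± 0.416 RPKM (-0.78 ± 0.08, adjusted p = 0.00533). OAS1, which activates RNase L on double-stranded RNA, rose to 23.8 ± 0.418 RPKM, against 12.3 ± 1.65 RPKM (0.89 ± 0.10, adjusted p = 0.0059), and the helicase gene DDX41 to 19.8 ± 1.03 RPKM, against 13.5 ± 0.393 RPKM (0.49 ± 0.08, adjusted p = 0.0114). Leaving out either knockdown library left 1 higher and 2 lower genes, and leaving out either wild-type library left 2 higher genes.

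**Figure D5:**
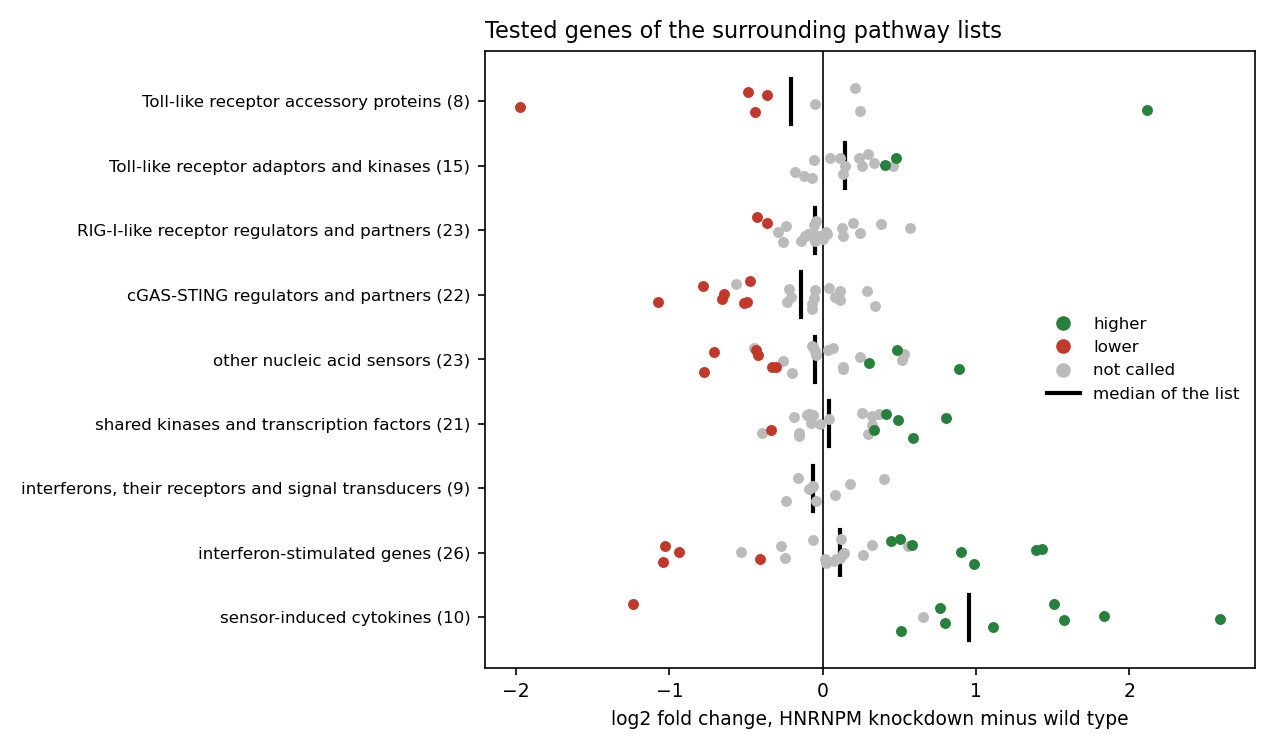
Log2 fold changes, HNRNPM knockdown minus wild type, of the tested genes of 9 pathway lists (number tested in brackets); green is higher and red lower at an adjusted p under 0.05, grey is not called, and black bars are list medians. Medians ran from -0.21 for accessory proteins to 0.95 for cytokines.

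The kinases and transcription factors shared by these routes had 5 of 21 genes higher and 1 lower, with a median log2 fold change of 0.040. Called genes were 28.6% of the list, near the 24.9% of all tested genes. OPTN, which binds the kinase TBK1, rose to 15.7 ± 0.304 RPKM in knockdown, against 8.54 ± 0.167 RPKM in wild type (log2 fold change 0.80 ± 0.07, limma adjusted p = 0.00434). The NF-kB subunit gene RELA, its inhibitor gene NFKBIA and IRF1, an interferon regulatory factor, had log2 fold changes of 0.41 ± 0.07, 0.34 ± 0.07 and 0.59 ± 0.12 (limma adjusted p = 0.0164, 0.0208 and 0.0216). Higher genes numbered 1 without knockdown replicate 1, 1 without knockdown replicate 2 and 3 without wild type replicate 1, and without any of these 3 no gene of the list was called lower.

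No interferon, interferon receptor or signal transducer was called by limma among 9 tested, with 1 higher and 0 lower at an unadjusted p under 0.05 and 0 by limma-voom. Among all tested genes 24.9% were called. The most abundant were the receptor kinases JAK1, at 25.9 ± 0.353 RPKM in knockdown and 21.9 ± 0.224 RPKM in wild type (log2 fold change 0.17 ± 0.06, limma adjusted p = 0.0982), and TYK2, at 8.19 ± 0.475 RPKM in knockdown and 8.78 ± 0.584 RPKM in wild type (-0.16 ± 0.10, adjusted p = 0.271). The interferon genes IFNL1, IFNE and IFNK had at most 8 reads in any library, and IFNB1 and IFNA1 were not analysed here.

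Interferon-stimulated genes changed in both directions: of 26 tested, 7 were higher and 4 lower, with a median log2 fold change of 0.11. That share called, 42.3%, compares with 24.9% of all tested genes. IFITM2, a block to virus entry, rose to 8.85 ± 0.965 RPKM in knockdown, against 3.08 ± 0.202 RPKM in wild type (log2 fold change 1.43 ± 0.11, limma adjusted p = 0.00382). BST2, which tethers budding viruses, averaged 1.33 ± 0.0941 RPKM in knockdown and 0.424 ± 0.0212 RPKM in wild type. It too passed the filter only through the knockdown libraries, so its call among the 7 higher genes is a description. TAP1, a transporter of antigen peptides, fell to 2.27 ± 0.173 RPKM, against 4.58 ± 0.186 RPKM (-1.04 ± 0.12, adjusted p = 0.0061), and LGALS3BP had a log2 fold change of -0.94 ± 0.13 (adjusted p = 0.00782). The other 7 genes of the list, among them MX2, RSAD2 and IFI44L, were below the filter. Without knockdown replicate 1 the list had 1 higher and 2 lower genes, without knockdown replicate 2 it had 2 higher, and without wild type replicate 1 it had 4 higher.

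Of the cytokines that these sensors can induce, 10 of 19 listed were tested. Of these 10, 8 were called higher and 1 lower, with a median log2 fold change of 0.95. CCL5, IL6, TNF, LTB, CSF2 and IL11 were below the filter, and CXCL10, CXCL11 and CCL2 were not analysed here. In either direction 90% of the tested list was called, against 24.9% of all tested genes. CCL20, a chemokine for lymphocytes and dendritic cells, rose to 5.81 ± 0.0679 RPKM in knockdown, against 0.842 ± 0.0411 RPKM in wild type, and IL1B to 6.08 ± 0.0608 RPKM, against 1.93 ± 0.529 RPKM (log2 fold changes 2.59 ± 0.12 and 1.57 ± 0.20, limma adjusted p = 0.0027 and 0.00689). IL32 had a log2 fold change of 1.83 ± 0.12 (adjusted p = 0.00314), while CSF1, a macrophage growth factor, fell by 1.24 ± 0.07 on the log2 scale (limma adjusted p = 0.00298). Earlier results on these libraries already showed CCL20, IL32 and CSF1, and the list was chosen with those known. Higher cytokines numbered 5 without knockdown replicate 1 and 4 without knockdown replicate 2. Of the genes named, RNF26, SLC19A1, OAS1, OPTN, IRF1, JAK1, TAP1, IFITM2, TAB2, TLR9, IL32, ERLIN1, CHRNA5, KLF3 and HNRNPM overlap exons of other genes, mostly on the opposite strand, so reads of those genes could be counted in them.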

How the data were processed

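The 4 libraries have 1 table each, and per the labels' protocols the kit was stranded and added molecular identifiers. The submitters' processing notes list StringTie 1.3.2, edgeR 3.12.1, Subread 1.5.1 with featureCounts, and Trimmomatic 0.36. They name no aligner, and whether counting used strand or identifiers is not stated. The deposited values are RPKM over annotated exons, computed by the authors. The notes name mouse build mm9, but 99.9% of 26367 gene names lay on the same chromosome as in human GENCODE and 93.6% had the same start and end in GRCh38. All values were whole multiples of 1 read within 0.01 of a read, so reads could be recovered. RPKM were divided by TMM factors computed on these reads (1.03 and 1.02 in knockdown, 0.984 and 0.972 in wild type) and log2(RPKM + 0.1) was the response in limma 3.58.1 (R 4.3.3; trended prior, group as the only term, Benjamini-Hochberg adjustment). Tested genes reached the equivalent of 10 reads in 2 libraries and 15 reads in all. For 2 against 2 libraries the smallest p of an exact permutation test is 0.333, and the p-values lean on limma's pooled spread (2 residual and 3.56 prior degrees of freedom). Replicates differed by more than read sampling (chi-square per gene 2.13 between knockdown and 7.77 between wild-type libraries), and all 4 were kept. The procedure was also run on simulated data that had the same spread setting for every gene and both groups. The real replicates differed unequally between groups, so no conclusion is drawn from that run. The genes, lists and tests were chosen with earlier results of these data known. Genes named are the 10 members, HNRNPM, up to 4 called genes per list with the smallest adjusted p (the 2 most abundant where none was called), and, for each called member, the 3 closest patterns and the genes within 100 kb; 1 gene that the rule names is not reported here. Alternatives covered scaling, pseudocount, filter, limma-voom on recovered reads, robust moderation, a replicate block and leaving out each library. Intervals for few reads are exact conditional binomial (SciPy 1.17.1, 95%).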

Additional observations from a re-analysis of the deposited data

How the results depend on the processing

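TLR1, TLR6 and HNRNPM kept their direction and call in all 13 alternatives. The number of the 10 genes called lower ranged from 2 to 4 and the number called higher was 0 throughout: 3 were lower with the other scalings, a pseudocount of 1, the stricter filter and the replicate block, 4 with limma-voom, a pseudocount of 0.01 and robust moderation, 2 without any filter, and 2 to 3 without 1 library. In the settings with 4 lower genes the added gene was TLR3, which passed the filter only through the wild-type libraries. TMEM173 was not called without a filter (adjusted p = 0.0782). MAVS changed sign with total-read scaling (0.055) and median-of-ratios scaling (0.014) and lay between -0.030 and 0.011 without 1 library; the cause was not tested. The replicate numbers share only a number (correlation of same-numbered deviations 0.0628), and with the replicate block 3 genes were lower and all genes called numbered 5129 in place of 5032. Over all genes, 2240 higher and 2792 lower calls became 693 and 1113 without a filter, where 39306 genes were tested, 3278 and 3954 with limma-voom, and 488 to 1827 and 821 to 1929 without 1 library; scaling to total reads turned 44.5% higher into 55.5%. Across alternatives the pathway lists had, higher and lower, 0 to 1 and 0 to 4 (accessory proteins), 0 to 4 and 0 (adaptors), 0 to 3 and 0 to 4 (RIG-I-like receptor partners), 0 to 1 and 1 to 8 (cGAS-STING partners), 1 to 5 and 2 to 6 (other sensors), 1 to 6 and 0 to 2 (shared kinases and factors), 0 to 1 and 0 (interferon signalling), 1 to 8 and 2 to 5 (interferon-stimulated genes), and 4 to 9 and 1 (cytokines) called genes. A library left alone in its group is assumed to vary like the other group. TLR3 without either wild-type library, and TLR3 and MB21D1 with the stricter filter, gave no value because they failed the filter. Few reads limit TLR3, MB21D1, CD14 and LBP most.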
